A study of Homo sapiens with 4 samples.

Results

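Lactate dehydrogenase interconverts pyruvate and lactate while it interconverts NADH and NAD+, and monocarboxylate carriers move both acids across membranes. The genes described here were chosen by name, as the 2 main lactate dehydrogenase subunits (LDHA and LDHB), the plasma membrane carriers MCT1 (SLC16A1) and MCT4 (SLC16A3), their chaperone basigin (BSG) and the 2 subunits of the mitochondrial pyruvate carrier (MPC1 and MPC2). They were 7 of the 28729 genes in the deposited table and 7 of the 12645 genes that passed the filter on low values. The study asked what loss of SKA3, a subunit of the spindle and kinetochore associated complex, does to gene expression in laryngeal squamous cell carcinoma (LSCC). RNA from 4 libraries of TU-177, an established LSCC cell line, was sequenced. In 2 libraries (SKA3-KD 1 and SKA3-KD 2) the cells carried a lentiviral shRNA against SKA3, and in the other 2 (NC 1 and NC 2) a lentiviral negative control. Both groups carried a lentivirus and had been selected with puromycin, and the labels name no single clone. No label states that replicates 1 and 2 were separate cultures, so the p-values below measure only the spread between these libraries, which may be technical.

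Cells that break down glucose quickly turn much of their pyruvate into lactate, as many carcinoma cells are known to do. LDHA is the muscle-type subunit and LDHB the heart-type subunit of the same tetrameric enzyme. MCT1 and MCT4 carry lactate together with a proton and need basigin to reach the plasma membrane. MPC1 and MPC2 form a heterodimer in the inner mitochondrial membrane through which pyruvate enters the mitochondrion, and the carrier does not work with either subunit missing.

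LDHA is a textbook target of MYC and of the hypoxia-inducible factors, and 1 of its promoters is shown beside those of LDHB, the partner subunit, and MPC1, the gene in this group whose RNA passed the test. The 250 bases before the start site were read from RefSeq on the GRCh38.p14 build, and 6 of the 7 genes had an entry. Capitals mark the hypoxia response core, ACGTG or GCGTG on either strand, and the E-box CACGTG, which holds ACGTG on both strands. The LDHA window lies at chr11:18394313-18394562 on the plus strand, the LDHB window at chr12:21657843-21658092 on the minus strand and the MPC1 window at chr6:166382941-166383190 on the minus strand.
LDHA: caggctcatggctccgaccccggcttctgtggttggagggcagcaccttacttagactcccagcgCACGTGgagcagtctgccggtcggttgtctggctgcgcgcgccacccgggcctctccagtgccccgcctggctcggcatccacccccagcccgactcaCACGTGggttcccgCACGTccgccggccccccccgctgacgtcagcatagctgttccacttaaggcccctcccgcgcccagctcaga
LDHB: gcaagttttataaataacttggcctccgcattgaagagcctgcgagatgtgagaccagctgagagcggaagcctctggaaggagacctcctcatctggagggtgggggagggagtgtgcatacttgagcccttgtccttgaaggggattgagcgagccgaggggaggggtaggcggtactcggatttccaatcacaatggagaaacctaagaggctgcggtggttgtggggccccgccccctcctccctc
MPC1: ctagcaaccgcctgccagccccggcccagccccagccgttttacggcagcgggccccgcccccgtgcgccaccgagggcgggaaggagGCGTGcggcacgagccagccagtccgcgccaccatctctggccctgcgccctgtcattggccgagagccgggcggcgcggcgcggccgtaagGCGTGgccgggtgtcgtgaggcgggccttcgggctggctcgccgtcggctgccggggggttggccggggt

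The LDHA window shown held 2 E-boxes and 5 matches to the hypoxia core, counting each strand. RefSeq has a second LDHA window, at chr11:18396101-18396350 on the plus strand, which held 0 E-boxes and 1 hypoxia core. In the LDHB window neither motif was found. The MPC1 window held 2 hypoxia cores and 0 E-boxes, and its GC content was 77.6% against 69.6% for LDHA and 58.0% for LDHB. Over all 14 windows of the 6 genes, 2 held an E-box and 7 held a hypoxia core, while 6.34% and 43.2% of 35116 RefSeq windows of the same length did. The other window with an E-box was 1 of the 2 windows of BSG. A match describes the letters in a window and is not a binding site.

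SKA3 (ENSG00000165480), the targeted gene, was at 9.40 and 9.64 FPKM (fragments per kilobase of exon, scaled to library size) in NC 1 and NC 2, and both knockdown libraries lay lower, SKA3-KD 1 at 3.77 and SKA3-KD 2 at 4.12 FPKM. Its mean was thus 41.4% of control, a log2 fold change of -1.09 (SE 0.07, limma adjusted p = 0.00806). As in any bulk RNA sample, fewer cells of a type and less RNA per cell cannot be told apart. Library sizes recovered from the FPKM steps ran from 9015056 to 11966130 reads. Of 9 squamous markers analysed, 3 had a mean of at least 1 FPKM (SFN, KRT17 and EPCAM), and the basal keratins KRT5 and KRT14 stayed at or below 0.103 FPKM, so the labelled squamous type was without most of its defining RNAs. The summed level of the squamous markers was 193 and 208 FPKM in NC and 167 and 189 FPKM in SKA3-KD, with KRT17 falling from a mean of 47.3 to 32.6 FPKM. Of 6 fibroblast markers analysed 3 had a mean of at least 1 FPKM, and their summed level was 15.4 and 15.8 FPKM in NC against 8.86 and 9.56 FPKM in SKA3-KD, and most of this difference was decorin (DCN), which fell from a mean of 8.38 to 2.41 FPKM. Of the other 2, COL1A1 had means of 3.60 and 2.69 FPKM and PDGFRB, in the opposite direction, 2.67 and 3.66 FPKM, and neither passed the test. None of the leukocyte markers (4 analysed) or endothelial markers (2 analysed) had a mean of 1 FPKM, and their sums were at most 0.365 and 0.0968 FPKM. The part of the shift in fibroblast and squamous markers in the differences below was not tested.

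MPC1 was the 1 gene of the group that passed the test, and it fell with SKA3 knockdown from a mean of 10.5 to 7.04 FPKM. The other 6 genes did not pass the test. Both SKA3-KD libraries nevertheless lay below both NC libraries for LDHB, BSG and MPC2, and above them for SLC16A3, while LDHA and SLC16A1 overlapped between the groups. All 7 genes were tested, and 1 was called lower and 0 higher at a limma adjusted p of 0.05. Across all 12645 genes tested the same rule called 6.11% lower and 6.16% higher. By unadjusted p under 0.05, 3 of the 7 genes passed, each with a negative fold change, as did 15.1% of all genes tested in that direction. Both SKA3-KD libraries lay below both NC libraries for 4 of the 7 genes and above for 1, while 29.2% and 32.3% of all genes tested did so. The median log2 fold change was -0.16 over the 7 genes and 0.01 over all genes tested. Fold changes are on the log2(FPKM + 1) scale, which understates the change of low genes.

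**Figure D1:**
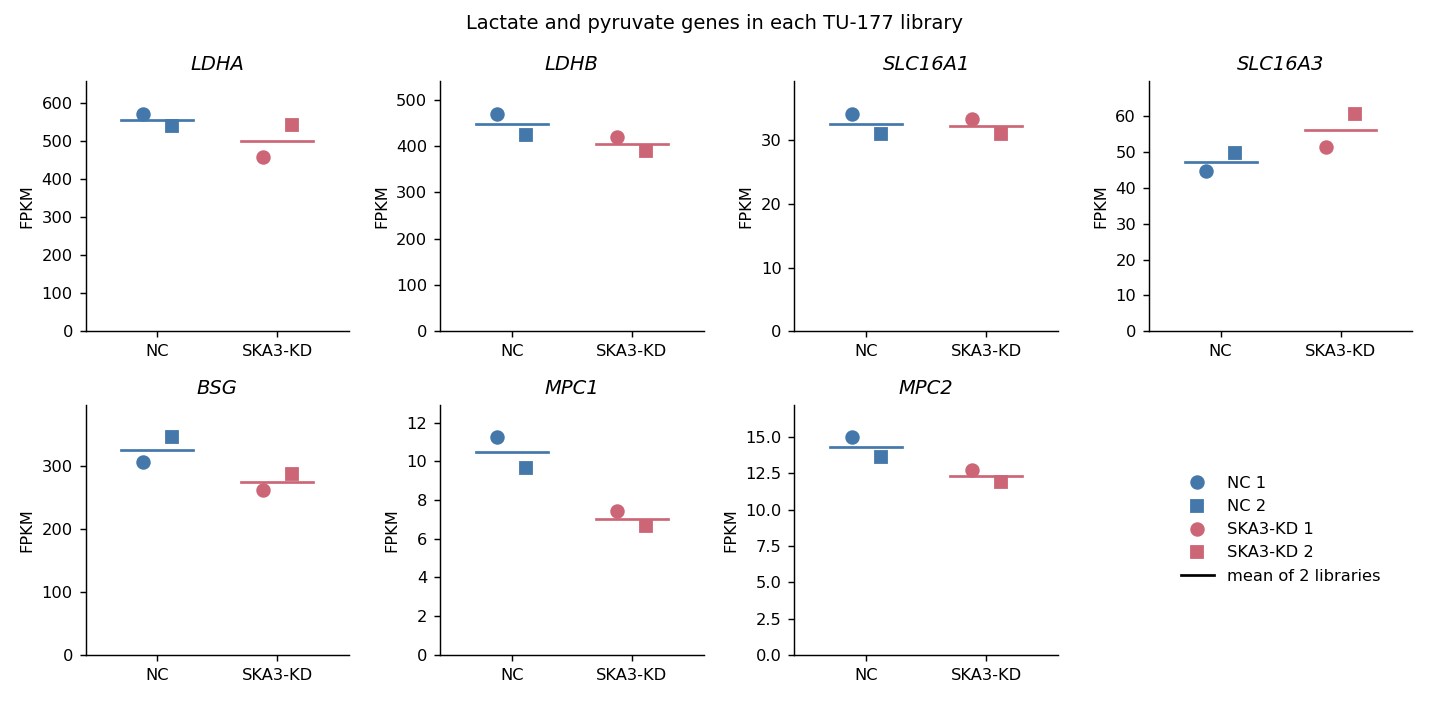
FPKM of each gene (y axes from 0, each on its own scale) in the 2 NC and 2 SKA3-KD libraries (x axis), with circles for replicate 1, squares for replicate 2 and a line at the mean of each group. MPC1 separates furthest relative to its level, from 10.5 to 7.04 FPKM on average, while the SLC16A1 points lie between 31.0 and 34.2 FPKM in both groups.

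The dehydrogenase subunits were the most abundant RNAs of the 7. LDHA (ENSG00000134333) was at 573 and 540.5 FPKM in NC 1 and NC 2 and at 459 and 542 FPKM in SKA3-KD 1 and SKA3-KD 2. SKA3-KD 2 lay inside the control range and only SKA3-KD 1 lay below it. The group means were 557 ± 22.7 and 501 ± 58.4 FPKM (SD, n = 2 each), so the knockdown mean was 90.0% of control. The log2 fold change was -0.16 (SE 0.09, 95% interval -0.39 to 0.08, limma adjusted p = 0.313). The spread between the 2 knockdown libraries was larger than the distance between the group means, and the log2 fold change came to -0.038 when SKA3-KD 1 was left out and to -0.28 when SKA3-KD 2 was.

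LDHB (ENSG00000111716) was at 470.1 and 424 FPKM in NC 1 and NC 2 and at 421 and 389.8 FPKM in SKA3-KD 1 and SKA3-KD 2. The groups did not overlap, but SKA3-KD 1 lay just under NC 2. The means were 447 ± 32.3 and 405 ± 21.8 FPKM (SD, n = 2 each). This gave a log2 fold change of -0.14 (SE 0.08, 95% interval -0.33 to 0.05, limma adjusted p = 0.271). LDHB thus did not pass the test. The log2 fold change was -0.067 without NC 1, -0.086 without SKA3-KD 2 and -0.21 without NC 2.

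Within a library, the ratio of LDHA to LDHB does not depend on scaling between libraries. It was 1.22 and 1.27 in NC 1 and NC 2 and 1.09 and 1.39 in SKA3-KD 1 and SKA3-KD 2. Knockdown libraries lay on either side of the control libraries, and their mean of 1.24 ± 0.211 was close to the control mean of 1.25 ± 0.0393 (SD, n = 2 each). An exact two-sided permutation test over the libraries gave p = 1, where 2 against 2 libraries cannot give less than 0.333. Leaving out SKA3-KD 1 turned the log2 difference of this ratio from -0.02 to 0.16, and leaving out NC 2 turned it to 0.02.

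Reads from processed pseudogenes can be exchanged with LDHA and LDHB in counting. The copy LDHAP4 was at 5.36 and 5.22 FPKM in NC and at 3.54 and 4.33 FPKM in SKA3-KD (log2 fold change -0.35, limma adjusted p = 0.0907), and its reads were 0.140% of those of LDHA. LDHAP2 and LDHBP1 held at most 3 reads in any library. The other 4 lactate dehydrogenase genes were low. LDHC, the testis subunit, was at 0.558 and 0.371 FPKM in NC and at 1.17 and 0.648 FPKM in SKA3-KD, from at most 25 reads, and did not pass the filter. LDHD, the mitochondrial D-lactate dehydrogenase, was the 1 gene of the 4 that was tested and had a log2 fold change of -0.02 (limma adjusted p = 0.905).

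MCT1 is found in most tissues, and MCT4 is the form typical of strongly glycolytic cells. SLC16A1 (ENSG00000155380), the MCT1 gene, was at 34.2 and 31.0 FPKM in NC 1 and NC 2 and at 33.4 and 31.0 FPKM in SKA3-KD 1 and SKA3-KD 2. These levels overlapped between the groups, with means of 32.6 ± 2.26 and 32.2 ± 1.67 FPKM (SD, n = 2 each). The log2 fold change was -0.01 (SE 0.08, limma adjusted p = 0.921), and its 95% interval ran from -0.21 to 0.18. The sign of this value turned when NC 1 was left out (0.054) or SKA3-KD 2 was left out (0.037). The antisense gene SLC16A1-AS1 had 3.51% as many reads as SLC16A1, and whether counting used strand is not given in the sources used here.

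SLC16A3 (ENSG00000141526), the MCT4 gene and a known hypoxia target, was at 44.7 and 49.8 FPKM in NC 1 and NC 2 and at 51.4 and 60.8 FPKM in SKA3-KD 1 and SKA3-KD 2. Both knockdown libraries lay above both controls, though the gap between NC 2 and SKA3-KD 1 was smaller than the distance between the replicates of either group. The means were 47.3 ± 3.61 and 56.1 ± 6.61 FPKM (SD, n = 2 each), so knockdown stood at 119% of control. The log2 fold change was 0.24 (SE 0.10, 95% interval -0.02 to 0.50, limma adjusted p = 0.189), and 0.12 without SKA3-KD 2. With limma voom on the reads recovered from the FPKM steps, a test added after seeing the data, the same gene was called higher (log2 fold change 0.25, adjusted p = 0.0212). Over all genes tested, voom called 1547 lower and 1752 higher, against 772 and 779 by limma on log2(FPKM + 1).

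The ratio of SLC16A1 to SLC16A3 was 0.764 and 0.622 in NC 1 and NC 2 and 0.649 and 0.511 in SKA3-KD 1 and SKA3-KD 2. These ranges overlapped, since SKA3-KD 1 lay inside the control range. The means were 0.693 ± 0.101 and 0.580 ± 0.0981 (SD, n = 2 each), with p = 0.667 by the exact two-sided permutation test. The log2 difference of -0.25 depended on each library, at -0.42 and -0.084 when SKA3-KD 1 or SKA3-KD 2 was left out and -0.11 and -0.40 when NC 1 or NC 2 was.

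BSG (ENSG00000172270) encodes basigin, the glycoprotein that escorts MCT1 and MCT4 to the cell surface. It was at 306 and 345 FPKM in NC 1 and NC 2 and at 262 and 286 FPKM in SKA3-KD 1 and SKA3-KD 2. The highest knockdown library lay below the lowest control, and the means were 325 ± 27.6 and 274 ± 17.3 FPKM (SD, n = 2 each), or 84.3% of control. The log2 fold change was -0.24 (SE 0.08, 95% interval -0.46 to -0.03), with an unadjusted p of 0.0318 and a limma adjusted p of 0.123, and without NC 2 the value was -0.16. Limma voom on the recovered reads, which called more genes in all than limma on FPKM, called it lower (log2 fold change -0.24, adjusted p = 0.0113). BSG-AS1, an antisense gene, had 0.184% as many reads as BSG.

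**Figure D2:**
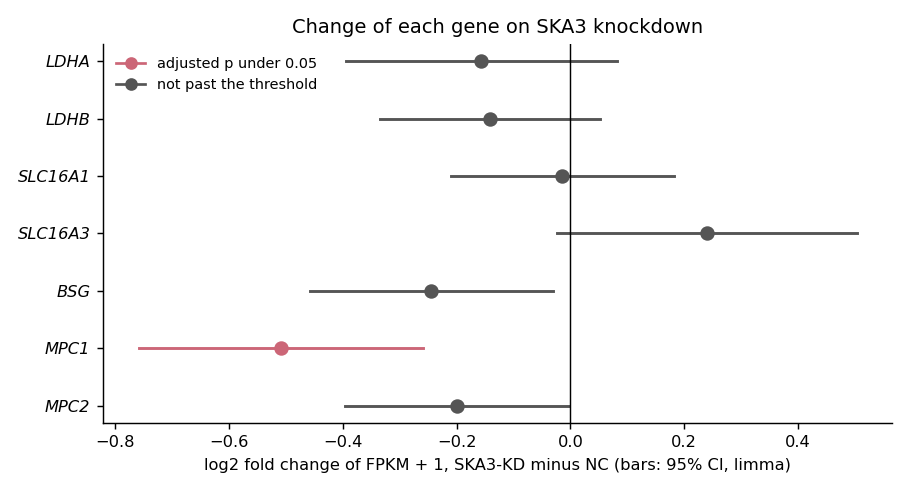
Log2 fold change of FPKM + 1, SKA3-KD minus NC (x axis), for each of the 7 genes (y axis), with the 95% limma interval from 2 libraries per group as a bar and the gene past an adjusted p of 0.05 in red. The intervals of LDHA, LDHB, SLC16A1 and SLC16A3 cross 0, those of BSG and MPC2 end just below 0, and that of MPC1 runs from -0.76 to -0.26.

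In the mitochondrial carrier, both RNAs were lower in both knockdown libraries, and 1 of the pair, MPC1, passed the test. MPC1 (ENSG00000060762) was at 11.2 and 9.67 FPKM in NC 1 and NC 2, from 205 and 133 reads. In SKA3-KD 1 and SKA3-KD 2 it was at 7.41 and 6.67 FPKM, from 115 and 120 reads. No knockdown library reached either control. On these smallest reads, the exact Poisson 95% intervals for counting error alone were 9.75 to 12.9 and 8.10 to 11.5 FPKM in NC. In SKA3-KD they were 6.12 to 8.89 and 5.53 to 7.98 FPKM. The interval of NC 2 overlaps that of SKA3-KD 1, and the other 3 pairings of a control with a knockdown library do not overlap. 

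The MPC1 means were 10.5 ± 1.10 and 7.04 ± 0.521 FPKM (SD, n = 2 each), so knockdown stood at 67.3% of control. The log2 fold change was -0.51 (SE 0.10, 95% interval -0.76 to -0.26, limma adjusted p = 0.0373). Leaving out any 1 of the 4 libraries kept the value between -0.61 and -0.41 but ended the call, with adjusted p from 0.0637 to 0.146. The call was also lost without the filter on low values (adjusted p = 0.112) and without the mean-variance trend (adjusted p = 0.0662). Limma voom on the recovered reads, which called more genes in all, called MPC1 lower (log2 fold change -0.58, adjusted p = 0.00647).

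MPC2 (ENSG00000143158), the partner subunit, was at 15.0 and 13.6 FPKM in NC 1 and NC 2 and at 12.7 and 11.9 FPKM in SKA3-KD 1 and SKA3-KD 2. The groups did not overlap. Means of 14.3 ± 0.931 and 12.3 ± 0.600 FPKM (SD, n = 2 each) gave a log2 fold change of -0.20 (SE 0.08). The unadjusted p was 0.0474 and the limma adjusted p was 0.155, so MPC2 did not pass the test. MPC1L, the testis form of MPC1, was listed at 0 in all 4 libraries.

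The ratio of MPC1 to MPC2 was 0.751 and 0.709 in NC 1 and NC 2 and 0.581 and 0.561 in SKA3-KD 1 and SKA3-KD 2. These ranges did not overlap, and replicates of a group were close together. The means were 0.730 ± 0.0296 and 0.571 ± 0.0145 (SD, n = 2 each). The log2 difference was -0.31 with 1 FPKM added to each gene, and -0.35 with 0.1 FPKM added. The exact two-sided permutation test gave p = 0.333, the smallest this design can give. Leaving out each library in turn kept the log2 difference between -0.34 and -0.27. The ratio of LDHA to the sum of MPC1 and MPC2 was 21.9 and 23.2 in NC and 22.8 and 29.2 in SKA3-KD, which overlapped (exact p = 0.667), and its log2 difference of 0.18 came to 0.36 when SKA3-KD 1 was left out and to 0.0064 when SKA3-KD 2 was.

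**Figure D3:**
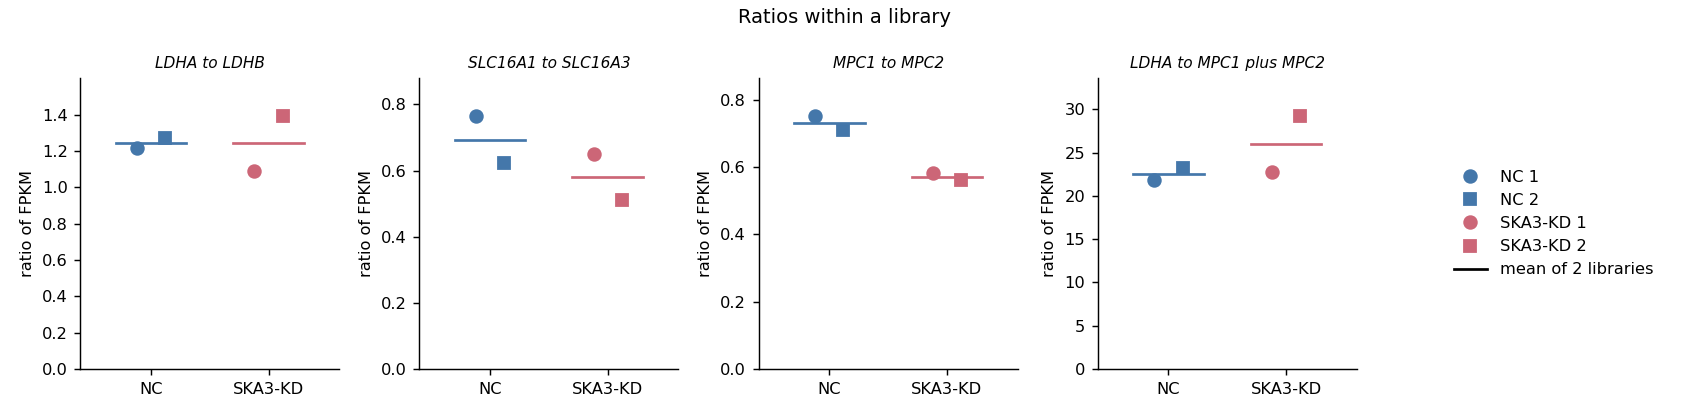
Ratios of FPKM within a library (y axes from 0) for LDHA to LDHB, SLC16A1 to SLC16A3, MPC1 to MPC2, and LDHA to the sum of MPC1 and MPC2, in the 2 NC and 2 SKA3-KD libraries (x axis), with lines at group means. Only the MPC1 to MPC2 panel shows groups that do not overlap, at 0.709 and 0.751 in NC against 0.561 and 0.581 in SKA3-KD.

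By mean FPKM in NC the order of levels was LDHA (557), LDHB (447), BSG (325), SLC16A3 (47.3), SLC16A1 (32.6), MPC2 (14.3) and MPC1 (10.5). Over all 4 libraries LDHA and LDHB were the one pair of neighbours whose ranges overlapped. Per length, LDHA RNA in NC was at 22.5 ± 0.934 times the summed level of the mitochondrial carrier RNAs (SD, n = 2). FPKM here divides by a long gene length, for LDHA 6210 bases where its principal transcript in GENCODE 29 has 2416. With reads divided by principal transcript length instead, a scale chosen after seeing the data, the order was the same and the NC levels were 1430.5 ± 58.3 for LDHA, 867 ± 62.7 for LDHB and 620.0 ± 52.5 for BSG (reads per kilobase of transcript, scaled to library size, SD, n = 2). On that scale SLC16A3 was at 88.0 ± 6.72 and SLC16A1 at 47.9 ± 3.32, and MPC2 at 16.8 ± 1.09 and MPC1 at 16.6 ± 1.75 no longer differed beyond their spread. For MPC1, BSG and SLC16A1 this scale rests on the smallest whole reads, so their levels on it may be too low. The ratio of LDHA to LDHB in NC moved from 1.25 to 1.65 between the scales and that of MPC1 to MPC2 from 0.730 to 0.987. That of LDHA to the sum of MPC1 and MPC2 moved from 22.5 to 43.0, so ratios between genes depend on the length used.

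The 3 genes whose pattern over the 4 libraries was closest to that of MPC1, by Euclidean distance of the deviations of log2(FPKM + 1) from the gene mean, were PFN2 (distance 0.0220), ENSG00000227619 (0.0248) and SECISBP2L (0.0267). PFN2, an actin-binding profilin, was at 70.2 and 61.6 FPKM in NC and at 48.6 and 44.6 FPKM in SKA3-KD (log2 fold change -0.49, limma adjusted p = 0.0325). With 4 libraries such closeness is a description of these libraries.

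Around these genes, 70 others in 7 lists take part in lactate and pyruvate handling. Of them 67 were in the table and 50 were tested, and 5 were lower and 5 higher by limma, and their log2 fold changes had a median of -0.04. Over all genes tested the shares were 6.11% lower and 6.16% higher, and the lists were not tested against them. The called genes lay in 6 of the 7 lists. Among the other monocarboxylate carriers and the lactate receptor, 5 of 16 genes were tested and 1 rose. This was SLC16A5, the MCT6 gene, at 4.63 and 5.39 FPKM in NC and at 7.95 and 7.80 FPKM in SKA3-KD (log2 fold change 0.57, SE 0.09, limma adjusted p = 0.0252). SLC16A6, the most abundant carrier of the list, was at 44.0 and 42.1 FPKM in NC and at 46.4 and 49.1 FPKM in SKA3-KD, which did not pass (limma adjusted p = 0.185). Of the 5 tested genes 2 had a negative log2 fold change. SLC16A7, the MCT2 gene, was at 2.12 and 1.76 FPKM in NC and at 1.25 and 1.32 FPKM in SKA3-KD. These groups did not overlap, but it did not pass (log2 fold change -0.36, limma adjusted p = 0.150). In the basigin family and its partners, 7 of 8 genes were tested and 1 fell. PPIA, cyclophilin A, an extracellular ligand of basigin, was at 459 and 442 FPKM in NC and at 338 and 324 FPKM in SKA3-KD (log2 fold change -0.44, limma adjusted p = 0.0166). PPIA has many processed pseudogenes, so this value is uncertain. Embigin (EMB), a relative of basigin that escorts some monocarboxylate carriers, stayed at or below 0.0318 FPKM and was not tested. SLC1A5, SLC3A2 and SLC7A5 did not pass.

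Among sources and uses of pyruvate, 12 of 14 genes were tested, 1 fell and 1 rose. PDHB, the beta subunit of the first enzyme of pyruvate dehydrogenase, was at 13.1 FPKM in both NC libraries and at 8.48 and 8.40 FPKM in SKA3-KD, or 64.3% of control (log2 fold change -0.58, SE 0.06, limma adjusted p = 0.0129). Other subunits of the complex did not pass, with log2 fold changes of 0.11 for PDHA1, 0.18 for DLAT and 0.01 for DLD. ME2, the mitochondrial malic enzyme that makes pyruvate from malate, rose from 8.44 and 8.35 FPKM in NC to 11.6 and 11.1 FPKM in SKA3-KD (log2 fold change 0.39, limma adjusted p = 0.0282). PKM, the pyruvate kinase gene, was at 369 and 385 FPKM in NC and at 311 and 372 FPKM in SKA3-KD and did not pass (limma adjusted p = 0.349).

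The malate-aspartate and glycerol phosphate shuttles oxidise cytosolic NADH as LDH does. Of 11 shuttle genes 10 were tested, and 1 rose. This was SLC25A11, the mitochondrial oxoglutarate carrier, at 23.4 and 24.9 FPKM in NC and at 30.0 and 30.1 FPKM in SKA3-KD (log2 fold change 0.30, limma adjusted p = 0.0422). MDH1, the cytosolic malate dehydrogenase (log2 fold change -0.14), and MDH2, the mitochondrial one (0.24), did not pass.

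Lactate export brings a proton with it, and 5 of 7 genes of proton and bicarbonate handling were tested, of which 1 fell. CA12, a membrane carbonic anhydrase that faces outward, fell from 7.88 and 7.75 FPKM in NC to 2.39 and 2.83 FPKM in SKA3-KD, or 33.4% of control (log2 fold change -1.29, SE 0.09, limma adjusted p = 0.00812). CA9, the hypoxia-inducible carbonic anhydrase, was at 12.5 and 16.8 FPKM in NC and at 3.0 and 7.57 FPKM in SKA3-KD. These groups did not overlap, but the replicates were far apart and the log2 fold change of -1.40 (SE 0.37) did not pass (limma adjusted p = 0.0736).

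**Figure D4:**
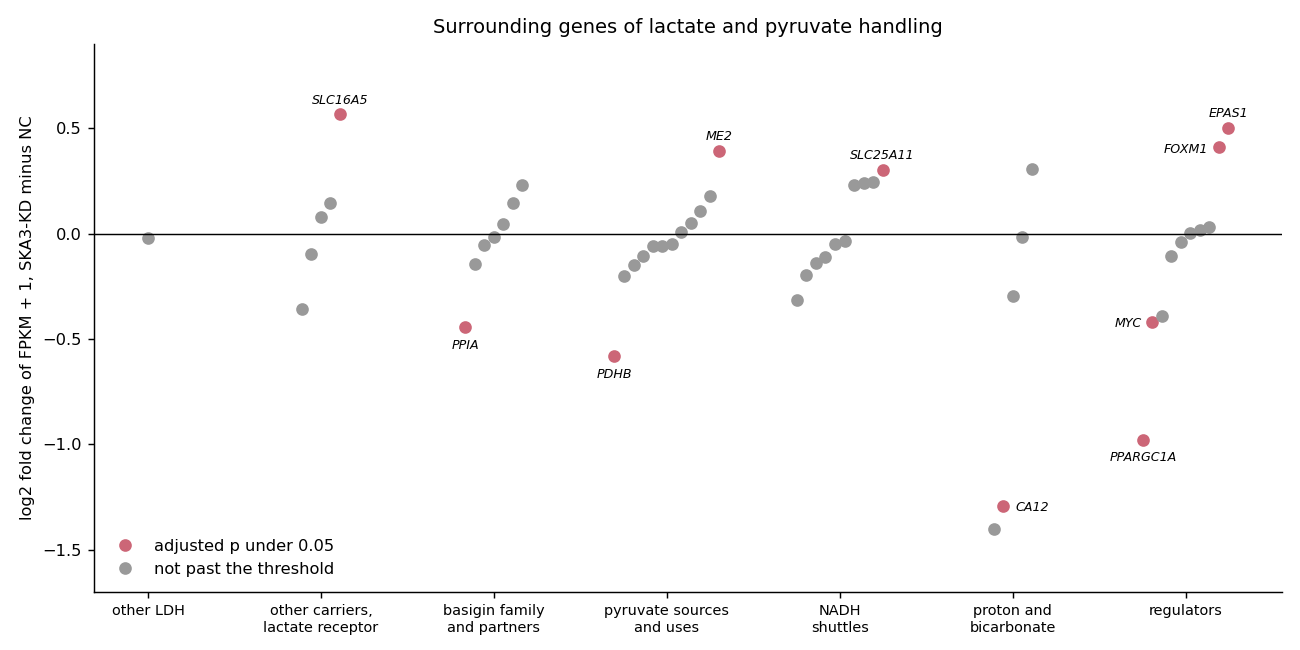
Log2 fold change of FPKM + 1, SKA3-KD minus NC (y axis), of the 50 tested genes of the 7 lists (x axis), each point 1 gene sorted by value within its list, with genes past a limma adjusted p of 0.05 in red and named. Of the 10 red points 5 lie above 0 and 5 below, the lowest at -1.29 for CA12, and the grey point below it is CA9.

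All 10 listed regulators of LDH and carrier genes were tested, and 2 fell and 2 rose, where 6.11% and 6.16% of all genes tested did. Of the 10 regulators 5 had a negative log2 fold change. MYC, which binds E-boxes with MAX, fell from 77.7 and 83.9 FPKM in NC to 57.7 and 62.7 FPKM in SKA3-KD (log2 fold change -0.42, limma adjusted p = 0.0301). MAX was at 6.53 and 7.81 FPKM in NC and at 5.26 and 5.17 FPKM in SKA3-KD. It did not pass (log2 fold change -0.39, limma adjusted p = 0.0654). PPARGC1A, the coactivator PGC-1alpha of mitochondrial biogenesis, fell from 2.84 and 2.64 FPKM to 0.981 and 0.815 FPKM (log2 fold change -0.98, limma adjusted p = 0.0189). EPAS1, which encodes HIF-2alpha, rose from 17.0 and 17.7 FPKM to 25.3 and 24.6 FPKM (log2 fold change 0.50, limma adjusted p = 0.0158). FOXM1, a cell cycle transcription factor, rose from 22.2 and 24.8 FPKM to 30.3 and 32.8 FPKM (log2 fold change 0.41, limma adjusted p = 0.0399). HIF1A, which encodes HIF-1alpha, was at 17.6 and 16.5 FPKM in NC and at 17.3 and 16.8 FPKM in SKA3-KD (limma adjusted p = 0.992).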

How the data were processed

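RNA of 4 TU-177 libraries was sequenced. The authors deposited 1 table of FPKM values for 28729 Ensembl genes, already divided by gene length and library size, which leaves differences in sequence composition in place. The submitters' processing notes name hg19, HISAT2, Bowtie2 2.2.8, StringTie 1.3.1 and Cuffdiff 2.1.1 without their roles. The labels describe a lentiviral shRNA, whereas the methods of the study also describe other ways of lowering SKA3.

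SKA3-KD was compared with NC by limma 3.58.1 in R 4.3.3 (lmFit, eBayes with a trend) on log2(FPKM + 1), over 12645 genes averaging 1 FPKM or more, two-sided, with Benjamini-Hochberg adjustment at 0.05. Since each low FPKM value is a multiple of the value of a single read, whole reads (tolerance 0.02) could be recovered for 12639 of the genes tested, 61.4% of these with a GENCODE 29 exon length. For the rest, the smallest length giving whole reads was taken, so their true reads may be larger. MPC1, BSG, SLC16A1 and the antisense genes are among them. Limma voom on the recovered reads was added after seeing the data. Ratios were tested by exact permutation of log2 ratios with 1 FPKM added to each side. The log2 differences of ratios are on that scale too, while the ratios themselves are of plain FPKM. The limma fits were also run on simulated reads. There, only genes with more reads than recovered for MPC1 were changed, and by more than MPC1. The simulation thus does not cover a change like that of MPC1 or the smaller ones of the other genes in the group. The replicates of each group differed by more than counting noise (chi-square per degree of freedom 3.15 in both groups).

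The 7 genes and the lists were chosen with earlier results of these data known. The genes named are the 7, SKA3, every list gene past the threshold, further list genes of high FPKM, near-identical copies and antisense genes, and the 3 genes closest in pattern to MPC1. LDHC, EMB and MPC1L lie outside that rule and were named after their values were seen. Intervals from reads cover counting error only. Promoters came from RefSeq (GRCh38.p14). The alternatives tried were leaving out each library, a block for the replicate number, quantile normalization, scaling by median of ratios, eBayes in its robust form or without a trend, another pseudocount (0.1), and a minimum mean of 5 FPKM or none. Python 3.11.15 with pandas 2.3.3, scipy 1.17.1 and numpy 2.4.6 was used.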

Additional observations from a re-analysis of the deposited data

How the results depend on the processing

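The number of genes called depended on the settings, while the directions of the 7 genes mostly did not. Against 772 genes lower and 779 higher, no filter on low values gave 81 and 48, no mean-variance trend 381 and 312, and limma voom on recovered reads 1547 and 1752, and leaving out 1 library gave 0 to 131 lower and 0 to 82 higher, with 0 of both without NC replicate 1. Of the 7 genes, 1 was lower (MPC1) and 0 higher. No filter, no trend and each left-out library gave 0 lower by limma, where 3 genes had an unadjusted p under 0.05 with all 4 libraries, and limma voom gave 2 lower (BSG and MPC1) and 1 higher (SLC16A3). With the replicate number as a block, 2 were lower (BSG, adjusted p = 0.0296, and MPC1, 0.0284) and 1 higher (SLC16A3, 0.0468), beside 965 genes lower and 1002 higher in all. Same-numbered libraries deviated with a correlation of 0.0973 over 12645 genes, and whether the numbers pair the libraries was not established. The log2 fold change of SLC16A1 ran from -0.083 to 0.054 over left-out libraries and turned to 0.054 without NC replicate 1 and 0.037 without SKA3-KD replicate 2. The log2 ratio of LDHA to LDHB ran from -0.19 to 0.16 over left-out libraries and turned to 0.02 without NC replicate 2 and to 0.16 without SKA3-KD replicate 1. SKA3 kept its direction throughout, with an adjusted p of 0.0689 without NC replicate 1. Quantile normalization brought LDHA to -0.08, LDHB to -0.04 and BSG to -0.16, and none of the 3 passed. The causes were not tested. The left-out fits have fewer libraries, and in them a lone library is assumed to vary like the other group. MPC1 rests on 115 to 205 reads per library, the smallest whole numbers that could be recovered.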
